A study of Mus musculus with 6 samples.

Results

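Neutrophil granule protein genes were examined across marrow cells that carried BCR-ABL with Blk, BCR-ABL alone or an empty vector. The 10 genes were Elane, Mpo, Prtn3 and Ctsg of the primary granule, Camp, Ltf, Lcn2 and Ngp of the specific granule, and S100a8 and S100a9. They were chosen by symbol, each had exactly 1 probe set that carried no other symbol, and all 10 were found among 19938 named genes. Since the symbols were picked with earlier results of these data known, the genes are described together and tested one by one in fits over all named genes.

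Neutrophils make their granules in sequence as they mature. Promyelocytes fill the primary (azurophil) granules with serine proteases and myeloperoxidase, and later cells fill the specific granules with proteins that bind iron or microbial membranes. S100a8 and S100a9 encode the subunits of calprotectin, which lies mostly in the cytosol and accumulates as the cells mature. Transcripts of the primary granule are known to appear already in early myeloid progenitors, before the cells leave the marrow.

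All 6 arrays held RNA of cells from C57BL/6 (B6) mice, 8 weeks old by the labels, with the genotype given as WT and 2 biological replicates per group. Donors had been pre-treated with 5-fluorouracil (5-FU), their marrow was infected with retrovirus and put into B6 recipients, and GFP+ Lin- c-Kit+ Sca-1+ cells were sorted 14 days later. The virus held BCR-ABL, Blk and GFP in the BCR-ABL-Blk group, BCR-ABL and GFP in the BCR-ABL group, and GFP alone in the vector group; BCR-ABL is the fusion kinase that drives chronic myeloid leukemia (CML), and Blk belongs to the Src family. The labels call the sorted cells LSCs (leukemia stem cells) in both BCR-ABL groups and HSCs (hematopoietic stem cells) in the vector group, and they do not say how many mice made a replicate. Where replicates are not separate mice, p-values measure only the spread between these samples. In such bulk RNA, fewer cells of a type and less RNA per cell cannot be told apart.

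All values below are log2 values of the arrays after quantile normalization, unless a sentence says otherwise; the medians of the deposited log2 values ran from 7.01 to 7.52. The number of arrays limits the precision, and the median standard error of a difference was 0.129 over all genes. Kit, the receptor used in the sort, read 10.74 and 10.33 in BCR-ABL-Blk, 10.43 and 10.43 in BCR-ABL and 10.71 and 10.92 in vector cells, and Ly6a, which encodes Sca-1, was not analysed here. Ly6g, the surface marker of mature neutrophils that lineage cocktails usually remove, read 6.28 and 7.91 in BCR-ABL-Blk, 6.71 and 7.07 in BCR-ABL, and 6.23 and 8.50 in vector cells. The vector arrays stood apart from each other: replicate 2 exceeded replicate 1 at all 10 granule genes, by 0.08 to 1.18 with a median of 0.51, while Blnk, a B cell adaptor gene, read 10.32 on vector replicate 1 and 8.56 on vector replicate 2. Monocyte and macrophage markers averaged 9.60 on vector replicate 1 and 9.66 on vector replicate 2, and erythroid markers averaged 10.21 and 9.76. Some differences and the class medians of the granule genes against vector are therefore also given without each vector array, and the medians of the wider lists with all arrays only.

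The stretches just before the RefSeq gene starts (build GRCm38.p6) are shown for the primary granule genes, which make up the first class compared, and for Ngp and S100a8 as examples of the other classes. The stretch of Elane lies at chr10:79886192-79886311 and that of Prtn3 at chr10:79879547-79879666, both on the + strand, and these are neighbouring protein-coding genes. That of Ctsg lies at chr14:56102575-56102794 on the - strand and that of Mpo at chr11:87793534-87793783 on the + strand. That of Ngp lies at chr9:110419658-110419807 and that of S100a8, the neighbour of S100a9, at chr3:90668951-90669070, both on the + strand. Capitals mark matches, on either strand, to GAGGAA (the core bound by PU.1), CAACNG (Myb) and TTNNGNAA (C/EBP).
Elane: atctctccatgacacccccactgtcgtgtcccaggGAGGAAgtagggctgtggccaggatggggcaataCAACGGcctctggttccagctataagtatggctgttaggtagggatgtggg
Prtn3: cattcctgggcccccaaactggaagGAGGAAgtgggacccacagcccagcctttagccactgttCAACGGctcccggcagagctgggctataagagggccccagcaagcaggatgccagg
Ctsg: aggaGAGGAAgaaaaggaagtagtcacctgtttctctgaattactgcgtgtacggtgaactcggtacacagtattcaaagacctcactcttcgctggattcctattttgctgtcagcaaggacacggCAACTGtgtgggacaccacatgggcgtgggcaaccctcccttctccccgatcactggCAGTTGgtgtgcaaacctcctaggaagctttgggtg
Mpo: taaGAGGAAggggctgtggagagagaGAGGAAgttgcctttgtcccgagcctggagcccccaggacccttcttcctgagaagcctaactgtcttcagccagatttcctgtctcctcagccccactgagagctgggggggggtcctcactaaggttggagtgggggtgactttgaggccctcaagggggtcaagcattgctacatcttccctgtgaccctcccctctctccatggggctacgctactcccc
Ngp: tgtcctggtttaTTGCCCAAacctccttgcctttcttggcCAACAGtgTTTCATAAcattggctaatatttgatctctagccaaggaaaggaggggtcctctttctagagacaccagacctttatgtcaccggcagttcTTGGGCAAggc
S100a8: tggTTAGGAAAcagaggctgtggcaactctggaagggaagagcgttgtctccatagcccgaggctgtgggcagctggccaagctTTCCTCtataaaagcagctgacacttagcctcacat

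Over the full 250 bases before each start, the PU.1 core occurred in 4 of 4 primary granule genes and in 3 of the 6 other genes, against 23.1% of 27018 promoters. In Elane it began 85 bases before the start, with a Myb match 51 bases before it. In Prtn3 it began 95 bases before the start, with a Myb match 56 bases before it. The Myb letters occurred in 3 of 4 primary granule genes and 2 of 6 others, against 29.3% of promoters. The C/EBP letters occurred in 0 of 4 primary granule genes and in 5 of 6 others (Ltf, Lcn2, Ngp, S100a8 and S100a9), against 36.9% of promoters. A further PU.1 match of S100a8 began 170 bases before its start, outside the stretch shown. The only overlap of different motifs was 3 bases of a C/EBP and a Myb match in Lcn2. Camp held none of the 3 motifs in this window. These matches describe the letters and not binding.

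In 9 of the 10 genes the group means kept 1 order, lowest in BCR-ABL-Blk, then BCR-ABL, then vector. The exception was Lcn2, with means of 8.11 in BCR-ABL-Blk, 9.34 in BCR-ABL and 9.32 in vector cells. The share of all genes with means in this order was not counted. Some steps were small, such as that of Ltf in BCR-ABL against vector (−0.02). Elane encodes neutrophil elastase. It read 10.02 and 9.73 in BCR-ABL-Blk, 10.52 and 10.43 in BCR-ABL, and 10.84 and 12.02 in vector cells. No array of one group overlapped another group, and vector replicate 2 lay far above the other vector array. Prtn3, which encodes proteinase 3, read 10.15 and 10.05 in BCR-ABL-Blk, 10.57 and 10.50 in BCR-ABL, and 10.70 and 11.67 in vector cells. Its groups were again separate, with the BCR-ABL arrays close below the lower vector array.

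Mpo, whose product makes hypochlorous acid, read 12.73 and 12.66 in BCR-ABL-Blk, 12.78 and 12.76 in BCR-ABL, and 12.85 and 13.23 in vector cells. The groups were separate here too, but vector replicate 2 stood well above the other arrays, which lay close together. Arrays lay lower without overlap in BCR-ABL than in vector for 14.9% of all genes, and in BCR-ABL-Blk than in BCR-ABL for 20%. The share of genes with every group separate in this order was not counted. Ctsg encodes cathepsin G, the third serine protease of these granules. It read 12.08 and 11.76 in BCR-ABL-Blk, 12.39 and 12.26 in BCR-ABL, and 12.26 and 12.87 in vector cells. Its BCR-ABL arrays lay on either side of vector replicate 1, whereas both BCR-ABL-Blk arrays lay below all 4 others.

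**Figure D1:**
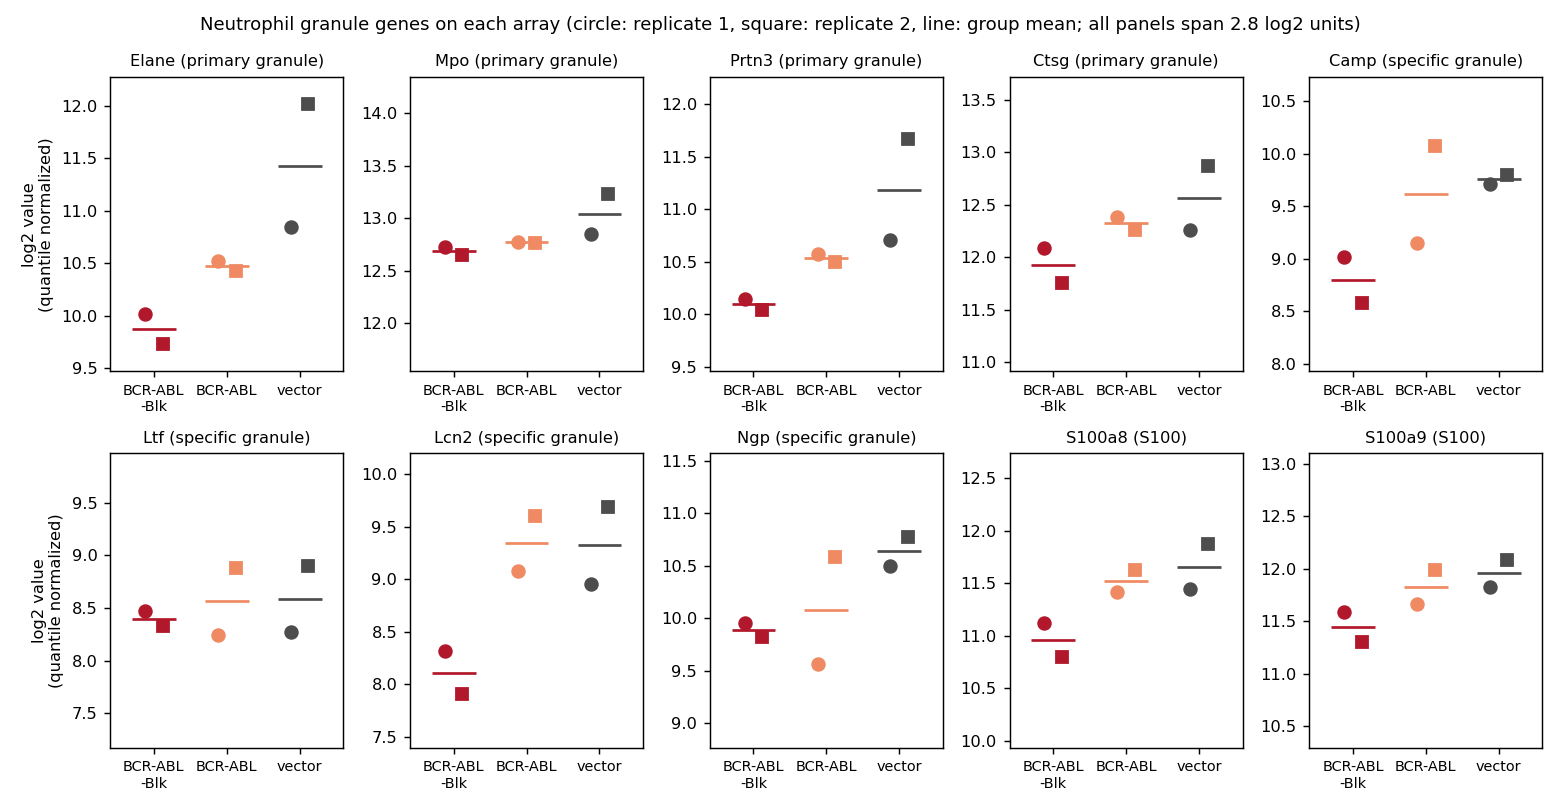
Log2 values (quantile normalized, vertical axes of equal span) of the 10 genes on each array, for BCR-ABL-Blk, BCR-ABL and vector cells from left to right; circles are replicate 1, squares replicate 2 and lines group means. Elane, Prtn3 and Mpo step up from BCR-ABL-Blk over BCR-ABL to vector without overlap, whereas Camp, Ltf, Lcn2 and Ngp spread widely between the BCR-ABL replicates. Of all genes, 20% lay lower without overlap in BCR-ABL-Blk than in BCR-ABL, and 14.9% in BCR-ABL than in vector.

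The specific granule genes had another pattern, with BCR-ABL replicates that lay far apart. Camp, the cathelicidin precursor, read 9.02 and 8.58 in BCR-ABL-Blk, 9.15 and 10.08 in BCR-ABL, and 9.72 and 9.80 in vector cells. Both BCR-ABL-Blk arrays were the lowest of the 6, and the BCR-ABL arrays lay on either side of the vector arrays. Lcn2, a lipocalin that binds bacterial siderophores, read 8.32 and 7.90 in BCR-ABL-Blk, 9.08 and 9.60 in BCR-ABL, and 8.95 and 9.69 in vector cells. The BCR-ABL-Blk arrays again lay below all others, while BCR-ABL and vector arrays overlapped.

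Ngp, a cystatin-like granule protein, read 9.95 and 9.82 in BCR-ABL-Blk, 9.57 and 10.58 in BCR-ABL, and 10.50 and 10.77 in vector cells. Its BCR-ABL-Blk arrays lay between the BCR-ABL replicates and below both vector arrays. Ltf, the iron-binding lactoferrin, read 8.47 and 8.32 in BCR-ABL-Blk, 8.25 and 8.88 in BCR-ABL, and 8.28 and 8.90 in vector cells. All 3 groups overlapped, and of the 10 genes only Ltf had BCR-ABL-Blk arrays that overlapped both other groups.

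S100a8 read 11.12 and 10.80 in BCR-ABL-Blk, 11.42 and 11.63 in BCR-ABL, and 11.45 and 11.87 in vector cells. S100a9, its partner, read 11.58 and 11.31 in BCR-ABL-Blk, 11.66 and 11.99 in BCR-ABL, and 11.82 and 12.09 in vector cells. In both genes the BCR-ABL-Blk arrays were the lowest and the BCR-ABL and vector arrays overlapped.

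In BCR-ABL cells set against vector cells, no granule gene passed (limma over 19938 genes, adjusted p under 0.05). The median difference was −0.46 over the 4 primary granule genes, −0.08 over the 4 specific granule genes and −0.14 over the S100 genes, beside 0.02 over all genes. Of the 10 genes 9 lay below 0, against 45.6% of all genes, and 0 were called, against 0.145% of all genes; at an unadjusted p under 0.05 there were 3, against 8.64% of all genes. These 3 were Elane, Mpo and Prtn3, which also were the 3 whose arrays lay lower in BCR-ABL without overlap, as for 14.9% of all genes. Elane differed by −0.96 (95% interval −1.72 to −0.19, SE 0.33, adjusted p = 0.449), a 1.94-fold lower signal in BCR-ABL. Prtn3 differed by −0.65 (interval −1.28 to −0.02, adjusted p = 0.563) and Mpo by −0.27 (interval −0.52 to −0.02, adjusted p = 0.535). Ctsg differed by −0.24, with an interval of −0.68 to 0.19 and an adjusted p of 0.782.

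Outside the primary granule, Ngp had a difference of −0.56 (interval −1.25 to 0.13, adjusted p = 0.66). The other 5 genes lay between −0.14 (Camp) and 0.02 (Lcn2), with adjusted p from 0.859 to 0.994 and intervals that reached at least 0.20 on either side of 0. With 2 arrays per group, differences of the sizes within these intervals were not excluded. The intervals are not adjusted for the number of genes and are not limits of detection.

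Whether any gene passed depended on the vector arrays. Without vector replicate 1, all 10 genes lay below 0 in BCR-ABL. Elane (−1.54), Mpo (−0.46) and Prtn3 (−1.13) passed, 3 of 10 genes against 2.52% of all genes. Without vector replicate 2, Elane was at −0.37, Prtn3 at −0.17 and Mpo at −0.08, and 0 of the 10 genes passed, against 1.05% of all genes. Leaving out vector replicate 1 gave a primary granule median of −0.83, and leaving out replicate 2 one of −0.12. The specific granule median was −0.34 and 0.09, and the S100 median −0.31 and 0.04, without the same arrays. In the deposited values without normalization between arrays, Elane, Mpo, Prtn3 and Ngp passed with differences of −0.97, −0.31, −0.66 and −0.60, 4 of 10 against 2.01% of all genes, while the median of all genes lay at −0.11.

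**Figure D2:**
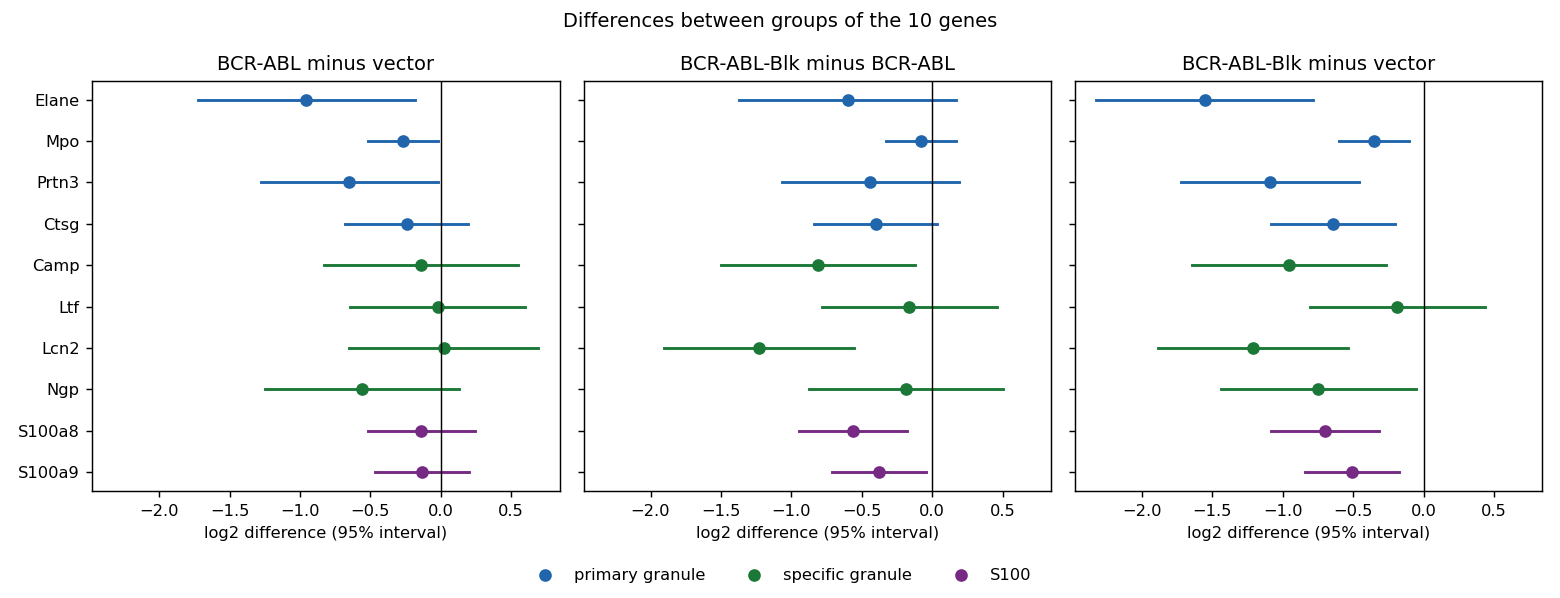
Log2 differences between groups (points) with 95% intervals from limma (lines) for the 10 genes, one panel per comparison, coloured by granule class. In BCR-ABL-Blk minus vector, 9 of 10 intervals lie wholly below 0, Ltf being the exception. In BCR-ABL minus vector this holds for Elane, Mpo and Prtn3. The intervals are not adjusted for the number of genes. Of all genes, 9.42% and 8.64% had an unadjusted p under 0.05 (limma, either direction) in the same order. No granule gene passed after adjustment.

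Added Blk was compared with BCR-ABL alone, and all 10 granule genes lay below 0 while 0 passed (limma, adjusted p = 0.999 for each). Over all genes 0 were called either (0% of 19938), with 3.96% at an unadjusted p under 0.05, and 54.3% of all genes lay below 0. The median difference was −0.42 for the primary granule, −0.50 for the specific granule and −0.47 for the S100 genes, beside −0.01 over all genes. In 8 of 10 genes both BCR-ABL-Blk arrays lay below both BCR-ABL arrays, as for 20% of all genes; Ltf and Ngp were the others.

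Lcn2 had the largest of these 10 differences, −1.23 (95% interval −1.91 to −0.56, SE 0.29), which is a 2.35-fold lower signal with Blk. Its rank from the lowest difference was 6 among 19938 genes. Camp differed by −0.81 (interval −1.50 to −0.12), S100a8 by −0.56 (interval −0.94 to −0.18) and S100a9 by −0.38 (interval −0.71 to −0.05), and with Lcn2 these were the 4 genes at an unadjusted p under 0.05. In the primary granule, Elane differed by −0.60 (interval −1.37 to 0.17), Prtn3 by −0.44 (interval −1.07 to 0.19) and Ctsg by −0.40 (interval −0.84 to 0.04). Mpo differed by −0.08, with an interval of −0.33 to 0.17.

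The specific granule genes depended on which BCR-ABL array was used. Their median difference for added Blk was −0.98 without BCR-ABL replicate 1 and −0.10 without BCR-ABL replicate 2. Without BCR-ABL replicate 2, Ngp was at 0.32 and Ltf at 0.15, while Lcn2 stayed at −0.96 and Camp at −0.34. The primary granule median was between −0.53 and −0.31 when any array was left out. In the deposited values Lcn2 passed with a difference of −0.99 (adjusted p = 0.00741), 1 of 10 genes against 0.396% of all genes. In those values the median of all genes lay at 0.26, and Mpo, Ltf and Ngp lay above 0.

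Set against vector, cells with both BCR-ABL and Blk had lower means at all 10 genes (48.7% of all genes lay below 0), and again 0 passed (limma; 0.14% of all genes were called). The medians were −0.87 for the primary granule, −0.85 for the specific granule and −0.60 for the S100 genes, beside 0.00 over all genes. At an unadjusted p under 0.05 there were 9 of the 10 genes, against 9.42% of all genes, and in the same 9 the arrays lay lower without overlap, as for 17.5% of all genes. Ltf was the exception in both counts. This comparison shares its groups with the other comparisons, so the 3 sets of values are not independent.

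The largest difference was that of Elane, −1.56 (95% interval −2.32 to −0.79, SE 0.33, adjusted p = 0.152), a 2.94-fold lower signal. Prtn3 differed by −1.09 (interval −1.72 to −0.46, adjusted p = 0.221), Ctsg by −0.64 (interval −1.08 to −0.21, adjusted p = 0.311) and Mpo by −0.35 (interval −0.60 to −0.10, adjusted p = 0.339). In the specific granule, Lcn2 differed by −1.21 (interval −1.89 to −0.54, adjusted p = 0.205), a 2.32-fold lower signal. Camp was at −0.95, Ngp at −0.75 and Ltf at −0.19. S100a8 differed by −0.70 (interval −1.08 to −0.32, adjusted p = 0.194) and S100a9 by −0.51 (interval −0.84 to −0.18, adjusted p = 0.289).

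Without vector replicate 1, all 10 genes lay below 0 in BCR-ABL-Blk, and 6 of the 10 genes passed, against 2.8% of all genes. They were Elane (−2.13, adjusted p = 0.000997), Prtn3 (−1.57, adjusted p = 0.00122), Mpo (−0.54, adjusted p = 0.00209), Ctsg (−0.94, adjusted p = 0.00929), S100a8 (−0.90, adjusted p = 0.0203) and Lcn2 (−1.57, adjusted p = 0.0222). Without vector replicate 2, 9 of the 10 genes lay below 0. Elane alone of the 10 passed (−0.97), against 1.12% of all genes. The class medians with replicate 1 left out and with replicate 2 left out were −1.25 and −0.48 for primary granule genes, −0.93 and −0.74 for specific granule genes, and −0.77 and −0.44 for the S100 genes. In the deposited values all but Ltf passed, 9 of 10 genes against 3.67% of all genes, while the median of all genes lay at 0.15. With both vector arrays in the quantile-normalized fit, Elane did not pass.

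Set beside each other, the granule classes lay closest together on vector replicate 1 and furthest apart on BCR-ABL replicate 2. With each gene centred on its own mean over 6 arrays, the primary granule genes averaged −0.33 and −0.53 in BCR-ABL-Blk, −0.01 and −0.09 in BCR-ABL, and 0.09 and 0.87 in vector cells. The specific granule genes averaged −0.32 and −0.60 in BCR-ABL-Blk, −0.25 and 0.53 in BCR-ABL, and 0.10 and 0.53 in vector cells. The S100 genes averaged −0.21 and −0.51 in BCR-ABL-Blk, −0.02 and 0.25 in BCR-ABL, and 0.08 and 0.42 in vector cells. The primary granule mean thus differed little between the BCR-ABL replicates and most between the vector replicates, and the specific granule mean differed most between the BCR-ABL replicates. Single genes did not all follow the class mean: Lcn2 differed by 0.52 between the BCR-ABL replicates and by 0.74 between the vector replicates, and Ltf by 0.63 and 0.62.

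Gene by gene, BCR-ABL replicate 2 read lower than replicate 1 in 4 of 4 primary granule genes, by 0.01 to 0.13, and higher in 6 of 6 others. The excess was 0.52 to 1.02 in the specific granule genes and 0.21 to 0.33 in the S100 genes. In the deposited values 1 of the 4 primary genes, Mpo, read higher on BCR-ABL replicate 2, with these 4 differences between −0.05 and 0.08. The gap of primary minus specific means was 0.24 on BCR-ABL replicate 1 and −0.62 on BCR-ABL replicate 2, and between −0.02 and 0.34 on the other 4 arrays. Mature neutrophil markers averaged 7.61 on BCR-ABL replicate 1 and 7.95 on BCR-ABL replicate 2. They averaged 7.63 and 8.15 on vector replicates 1 and 2, where the gap was −0.02 and 0.34. On BCR-ABL-Blk replicates 1 and 2 they averaged 7.55 and 7.76, with gaps of −0.01 and 0.07. The part of these markers in the gap was not tested.

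**Figure D3:**
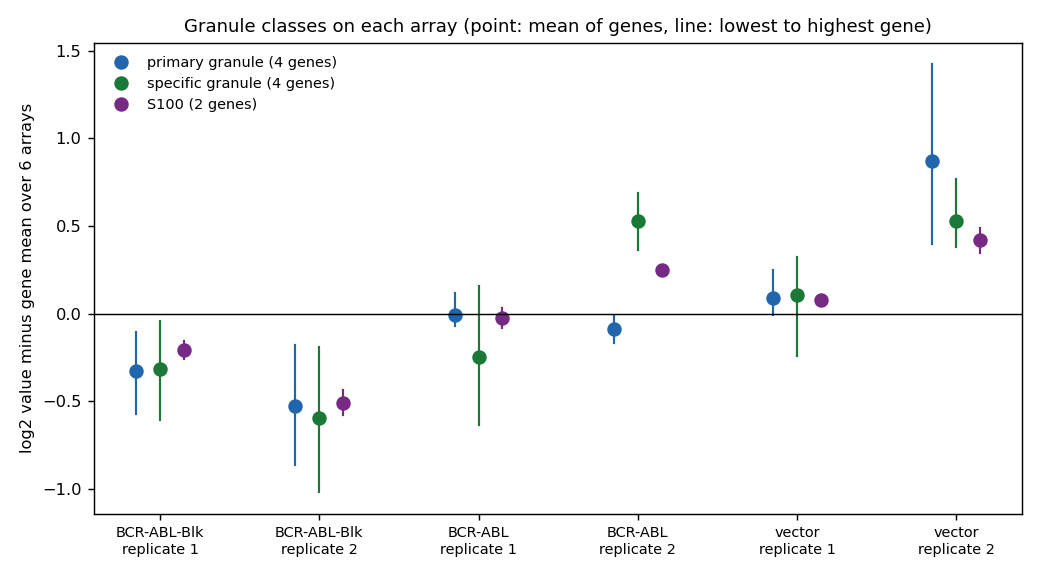
Mean log2 value of each granule class on each array, after centring each gene on its mean over the 6 arrays (points), with the lowest and highest gene (lines), for 4 primary granule, 4 specific granule and 2 S100 genes. On vector replicate 1 the class means lie between 0.08 and 0.10, and on BCR-ABL replicate 2 the specific granule mean is 0.53 and the primary granule mean −0.09.

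The genes most alike to these profiles over the 6 arrays were found by the root mean square difference of centred log2 values. For the primary granule mean they were Mcemp1 (0.06), F10, which encodes coagulation factor X (0.08), Nucb2 (0.08), Atp8b4 (0.09) and Slc49a4 (0.09). Mcemp1 had a difference of −0.83 in BCR-ABL-Blk and −0.44 in BCR-ABL against vector, and of −0.39 for added Blk. Among the primary genes themselves Prtn3 lay nearest to their mean (0.10) and Elane farthest (0.29). For the specific granule mean the most alike genes were Stfa3, a stefin (0.10), Nuak2 (0.13), Gdpd1 (0.15), Il10rb (0.17) and Retnlg, a resistin-like gene of neutrophils (0.17). Relative to its own mean, Stfa3 was at −0.20 on BCR-ABL replicate 1 and at 0.65 on BCR-ABL replicate 2. Stefin A genes have near-identical copies, so its probe set could read several of them. None of these 10 genes passed in any comparison, but they were picked for profiles like those of classes in which no gene passed.

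A wider list of genes linked to the primary granule, not all coding for its contents, had medians nearer to 0 than the 4 genes above. Of 8 measured, 7 lay below 0 in BCR-ABL-Blk against vector (median −0.49), 7 in BCR-ABL-Blk against BCR-ABL (median −0.24) and 7 in BCR-ABL against vector (median −0.09). Of all genes 48.7%, 54.3% and 45.6% lay below 0 in the same order. Calls were 0, beside 0.14%, 0% and 0.145% of all genes, and these shares also apply to the lists that follow. In BCR-ABL-Blk against vector, Bpi (−0.0008), Cd63 (0.05) and Gusb (−0.06) lay nearest to 0, and Cst7 was at −0.59 and Serpinb1a at −0.39. Bpi read only 5.71 to 6.00, beside a median level of 7.5 over named genes. Ms4a3, a membrane protein of granulocyte and monocyte progenitors, read 11.37 and 10.80 in BCR-ABL-Blk, 11.98 and 11.61 in BCR-ABL, and 11.69 and 12.56 in vector cells. Its difference from vector was −1.04 in BCR-ABL-Blk (adjusted p = 0.289) and −0.33 in BCR-ABL. Prss57, a serine protease of the same granules, differed by −0.81 and −0.48, and Lyz2, the myeloid lysozyme with a near-identical copy in Lyz1, by −0.92 and −0.77 in the same comparisons. Unlike the 4 primary granule genes, Lyz2 was higher on vector replicate 1 (10.78) than on vector replicate 2 (10.12).

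Of 22 measured genes linked to specific, gelatinase and secretory compartments, 1 was called in BCR-ABL against vector and 1 in BCR-ABL-Blk against vector. Over all genes 0.145% and 0.14% were called. In both cases the gene was Cybb, the catalytic subunit of the phagocyte oxidase. Cybb read 9.26 and 9.20 in BCR-ABL-Blk, 9.37 and 9.54 in BCR-ABL, and 10.51 and 10.86 in vector cells. It fell by 1.45 in BCR-ABL-Blk (limma adjusted p = 0.0383) relative to vector. In BCR-ABL it fell by 1.23 (limma adjusted p = 0.0483), and its difference for added Blk was −0.23. Without single arrays its difference ran from −1.62 to −1.30 in BCR-ABL-Blk and from −1.395 to −1.07 in BCR-ABL. Both calls were lost without any one BCR-ABL-Blk or BCR-ABL array and kept without either vector array. In each such fit the array left in a group showed no spread of its own, so keeping a call there is no test of it. Both calls were also lost with median centring, without the intensity trend and with 2 groups per fit, with adjusted p up to 0.0964 in BCR-ABL-Blk and 0.104 in BCR-ABL. Both vector arrays lay well above the 4 others, and Cybb is also a gene of monocytes. Of the 22 genes, 18 lay below 0 in BCR-ABL-Blk against vector (median −0.45) and 16 in BCR-ABL against vector (median −0.23), beside 48.7% and 45.6% of all genes. Hp, haptoglobin, differed by −1.54 and −0.77 in these comparisons, and Fcnb, ficolin B, by −1.14 and −1.11, without passing.

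Genes that process or move granule proteins had medians near 0, with 0 of 14 called, beside at most 0.145% of all genes in any comparison. Their medians were −0.09 in BCR-ABL-Blk against vector, −0.06 in BCR-ABL-Blk against BCR-ABL and −0.02 in BCR-ABL against vector. Ctsc, the peptidase that activates the granule serine proteases, read 10.31 and 9.70 in BCR-ABL-Blk, 10.46 and 10.45 in BCR-ABL, and 10.40 and 9.98 in vector cells. It was thus lower on vector replicate 2, where Elane, Prtn3 and Ctsg were highest. Snap23, a fusion protein of exocytosis, differed by 0.30 in BCR-ABL-Blk and 0.33 in BCR-ABL against vector, and Vps13b by −0.16 and −0.23.

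Granulocyte transcription factors gave 0 calls among 13, beside at most 0.145% of all genes in any comparison. Their medians were −0.19 in BCR-ABL-Blk against vector, −0.04 in BCR-ABL-Blk against BCR-ABL and −0.15 in BCR-ABL against vector. Cebpe, known in mice to be needed for specific granules, read 8.52 and 7.60 in BCR-ABL-Blk, 8.69 and 8.53 in BCR-ABL, and 8.58 and 9.69 in vector cells. Its extremes were the second replicates of BCR-ABL-Blk and of vector. Cebpa, which starts granulocyte commitment, differed by −0.34, Gfi1 by −0.11, Spi1, which encodes PU.1, by −0.68 and Irf8, a monocyte factor, by −1.04 in BCR-ABL-Blk against vector. In BCR-ABL against vector, Cebpa differed by −0.07, Gfi1 by −0.25, Spi1 by −0.64 and Irf8 by −1.33.

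Among 8 cytokine receptors 0 were called, and their median was −0.33 in BCR-ABL-Blk and −0.30 in BCR-ABL against vector. Csf1r, the receptor of macrophage colony-stimulating factor, differed by −0.96 and −1.05, Il3ra by −0.44 and −0.59, and Csf2ra by −0.34 and −0.40 in these comparisons. In BCR-ABL-Blk against BCR-ABL the receptor median was −0.0029, where all 10 granule genes lay below 0.

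Markers of other cell types also differed between the groups, and their part in the granule gene differences was not tested. Monocyte and macrophage markers averaged 8.26 to 8.57 in BCR-ABL-Blk, 8.36 to 8.81 in BCR-ABL and 9.60 to 9.66 in vector cells. All 9 lay below 0 against vector, with medians of −1.15 in BCR-ABL-Blk and −0.87 in BCR-ABL, and Ccr2, a chemokine receptor, fell by 1.38 in BCR-ABL-Blk (limma adjusted p = 0.0490). The call of Ccr2 was lost without any one of the BCR-ABL-Blk or BCR-ABL arrays (adjusted p up to 0.237), and with median centring, no intensity trend, array weights or 2 groups per fit (adjusted p up to 0.101). Ly86, F13a1 and Mpeg1 differed by −1.64, −2.27 and −1.42 in BCR-ABL-Blk against vector, without passing. For added Blk the monocyte median was −0.12. Of 7 mature neutrophil markers 0 were called, with medians of −0.27 in BCR-ABL-Blk against vector, −0.16 in BCR-ABL-Blk against BCR-ABL and −0.22 in BCR-ABL against vector. Mmp9 (6.7 to 7.1) and Il1b (6.5 to 7.2) read below the median level of named genes, 7.5, on every array. Retnlg, Mmp9 and Cd177 are also in the list of specific, gelatinase and secretory genes, and Cxcr2 and Csf3r in that of receptors. Cxcr2, the chemokine receptor of mature neutrophils, read 8.46 and 8.95 in BCR-ABL-Blk, 8.81 and 9.30 in BCR-ABL, and 8.89 and 9.96 in vector cells, so that the groups overlapped. Stem cell genes lay the other way, with 9 of 9 above 0 against vector in both groups. Their medians were 0.76 in BCR-ABL-Blk and 0.64 in BCR-ABL, and Meis1, a homeobox gene of stem cells, rose by 1.08 in BCR-ABL-Blk (limma adjusted p = 0.0490), a call also lost without any one of those 4 arrays (adjusted p up to 0.237) and in those 4 settings (adjusted p up to 0.160). Mecom and Slamf1 differed by 2.28 and 1.00 in BCR-ABL-Blk and by 1.85 and 1.21 in BCR-ABL against vector, without passing.

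**Figure D4:**
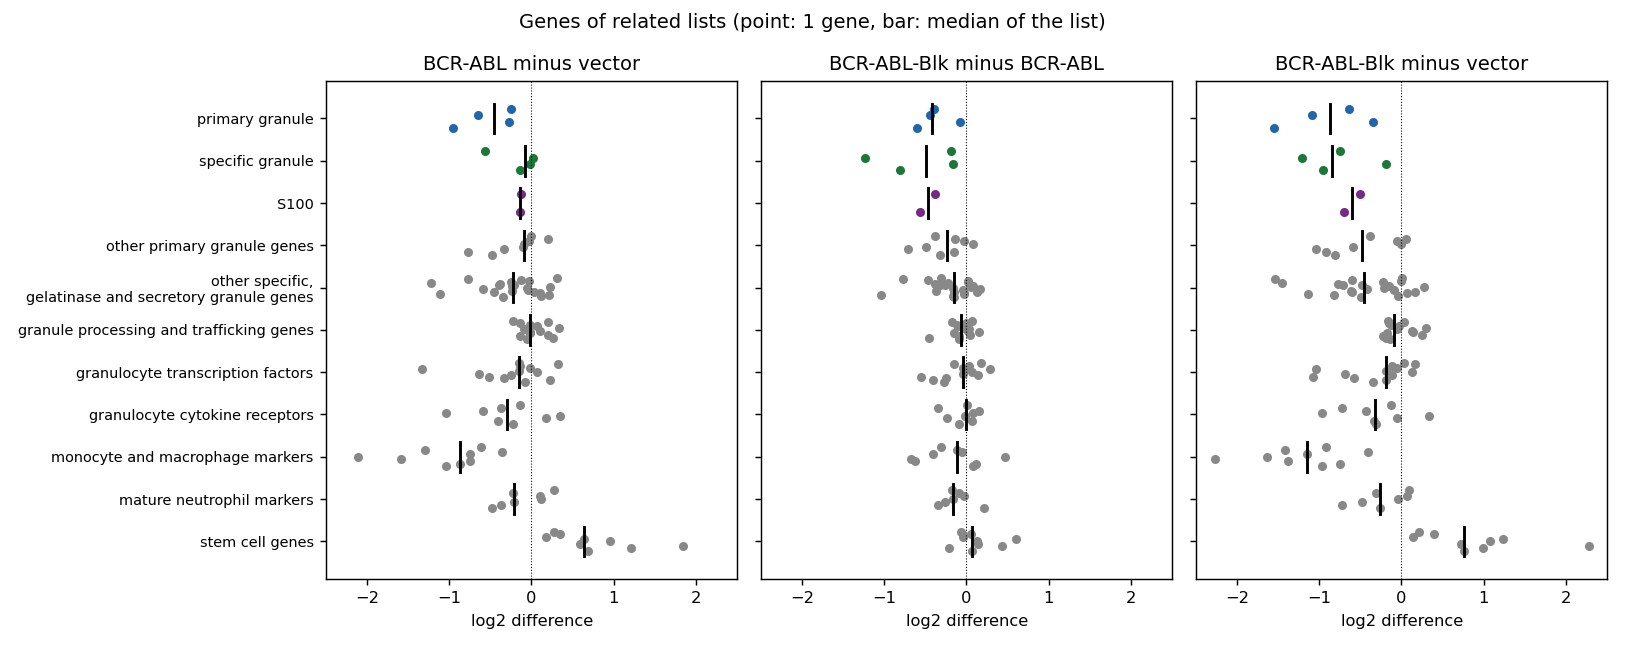
Log2 differences of single genes (points) and list medians (bars) in the 3 comparisons, for the granule classes and related lists. The granule classes lie left of 0 in BCR-ABL-Blk minus BCR-ABL (medians −0.42, −0.50 and −0.47), where monocyte markers (−0.12), transcription factors (−0.04) and cytokine receptors (−0.0029) have medians nearer to 0. Among lists not drawn, mast cell, basophil and eosinophil markers (−0.37) and erythroid markers (−0.28) have medians closer to those of the granule classes.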

How the data were processed

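Total RNA of sorted cells was measured on 1 Affymetrix whole-transcript array per sample. The deposited values are log2 values of 35557 probe sets, made by the authors with Affymetrix Expression Console 1.1 and RMA, per the submitters' processing notes; its options are not stated here. Because the deposited log2 distributions differed between arrays, the arrays were quantile normalized here, which removes shifts of whole arrays. The platform annotation gave 1 symbol for 21789 probe sets; per gene the probe set with the highest mean was kept, leaving 19938 genes. No filter on level was used, and signal over background was not measured.

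Differences were fitted with limma 3.58.1 in R 4.3.3 (lmFit, eBayes with an intensity trend) over 6 arrays and 3 groups. There were 3 residual and 4.4 prior degrees of freedom. Two-sided p-values were adjusted by Benjamini-Hochberg over 19938 genes and called under 0.05. The script was tested on simulated data with 200 changed genes in each of 20 runs. It recovered 44.7% of 1.5-fold and 93.3% of 2-fold changes, and on average 8.22% of its calls were false. The simulated noise was normal with the fitted spread of each gene, so these shares may not hold for the arrays. The members, lists, named genes (the 10 members, called list genes, the 3 largest differences per list in BCR-ABL against vector, and some preset genes) and alternatives were chosen with earlier results of these data known. Correlations of replicate deviations between groups ran from −0.06 to 0.08, so replicate numbers were not taken as pairs. Promoters and gene neighbours came from RefSeq (GRCm38.p6), and all 10 members matched. Figures were drawn with matplotlib 3.10.9.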

Additional observations from a re-analysis of the deposited data

How the results depend on the processing

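The number of granule genes called was 0 in each comparison in the fit described, and 14 alternatives were run. With the deposited values it was 4 in BCR-ABL against vector, 1 in BCR-ABL-Blk against BCR-ABL and 9 in BCR-ABL-Blk against vector. There limma's prior degrees of freedom were infinite, so every gene took its spread from the trend alone, and the median of all genes lay at −0.11, 0.26 and 0.15. With single arrays left out the number ran from 0 to 3, stayed at 0, and ran from 0 to 6 in the same order; a lone array was assumed to vary like the other groups. With a replicate block 0 granule genes were called in any comparison and 29, 0 and 23 genes in all; it changed no call of the 10 genes. Among genes of the other lists the block ended the calls of Cybb in BCR-ABL against vector (adjusted p = 0.0519) and of Ccr2, Gzmb (adjusted p = 0.0522 for both) and Meis1 (adjusted p = 0.0611) in BCR-ABL-Blk against vector. Centring on the median, no intensity trend, array weights, 2 groups per fit, genes above the median level and the mean of probe sets also gave 0.

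Between BCR-ABL-Blk and BCR-ABL the primary granule median was −0.25 in the deposited values and −0.55 with arrays centred on their medians (−0.42 in the fit described), and the specific granule median ran from −0.98 to −0.10 without single arrays. Some small differences turned sign. In BCR-ABL against vector, Lcn2 was at −0.03 in the deposited values, and with median centring Ltf was at 0.035 and S100a8 and S100a9 at 0.015. Without single arrays Ctsg ran from −0.54 to 0.061, Camp from −0.60 to 0.32, Ltf from −0.34 to 0.29, Lcn2 from −0.35 to 0.39, S100a8 from −0.35 to 0.071 and S100a9 from −0.30 to 0.029. In BCR-ABL-Blk against BCR-ABL, Mpo was at 0.045, Ltf at 0.11 and Ngp at 0.03 in the deposited values, and without single arrays Ltf ran from −0.48 to 0.15 and Ngp from −0.69 to 0.32. In BCR-ABL-Blk against vector, Ltf ran from −0.50 to 0.13 without single arrays. The cause was not tested.

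In BCR-ABL against vector, the calls over all genes were 24 higher and 5 lower, against 176 and 225 in the deposited values, 53 in all among genes above the median level, 15 without the trend and 1 to 502 without single arrays. For BCR-ABL-Blk against vector they were 19 and 9, against 562 and 170 in the deposited values, 71 above the median level, 4 without the trend, 14 with array weights, 4 with 2 groups per fit and 4 to 558 without single arrays. For BCR-ABL-Blk against BCR-ABL they were 0 and 0, against 66 and 13 in the deposited values and 2 in all without BCR-ABL-Blk replicate 1.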

Other observations

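Markers of mast cells, basophils and eosinophils, whose granules also hold proteases, differed from the neutrophil granule genes in direction against vector but not for added Blk. Their median was 0.73 in BCR-ABL-Blk against vector, −0.37 in BCR-ABL-Blk against BCR-ABL and 1.11 in BCR-ABL against vector. Against vector 5 of the 8 lay above 0 and 3 below it in either group, and all 8 lay below 0 in BCR-ABL-Blk against BCR-ABL. Gzmb, a granule serine protease, read 10.26 and 9.19 in BCR-ABL-Blk, 10.40 and 10.55 in BCR-ABL, and 7.22 and 7.22 in vector cells. Relative to vector it rose by 2.50 in BCR-ABL-Blk (limma adjusted p = 0.0490) and by 3.25 in BCR-ABL (adjusted p = 0.0187), while no neutrophil granule gene passed. Without either BCR-ABL array neither call was kept, with adjusted p of 0.150 and 0.151 in BCR-ABL-Blk and of 0.175 and 0.260 in BCR-ABL. The call in BCR-ABL-Blk was also lost without the intensity trend, with array weights and with 2 groups per fit (adjusted p up to 0.150). Cma1, mast cell chymase, differed by 1.35 and 1.81, and Fcer1a, the IgE receptor chain, by 1.53 and 2.02, without passing. The 3 below 0 were Prg2 (−1.11 in BCR-ABL-Blk and −0.98 in BCR-ABL), Ms4a2 (−0.44 and −0.30) and Epx (−0.23 and −0.13), named after their values were seen. Cell cycle genes had medians of −0.01, 0.02 and −0.04 in BCR-ABL-Blk against vector, BCR-ABL-Blk against BCR-ABL and BCR-ABL against vector, with 0 of 8 called. T and NK cell markers had medians of −0.14, −0.15 and −0.05, B cell markers of −1.49, 0.49 and −1.74, and erythroid markers of −0.88, −0.28 and −0.62 in the same order, with 0 called. In BCR-ABL against vector, the B cell genes Blnk, Ebf1 and Igll1 differed by −3.20, −2.64 and −2.45, and the erythroid genes Car1, Aqp1 and Ermap by −1.15, −0.78 and −0.72. In the same comparison Ncr1, Cd3g and Cd3e of the T and NK cell list differed by −0.34, 0.20 and 0.20, Mki67, Mcm2 and Aurka of the cell cycle list by −0.26, 0.14 and −0.13, and Il1b by 0.27.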
